A study of Mus musculus with 564 samples.

Results

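The promoters of the cytosolic ribosomal protein genes were examined in H3K27ac ChIP-seq data of mouse bone marrow-derived macrophages (BMDMs). H3K27ac, acetylation of lysine 27 of histone H3, marks active promoters and enhancers. The data give its level at 59190 cis-regulatory elements (CREs), regions defined by open chromatin. A CRE was taken as a member where its centre lay within 1000 bp of the annotated start of a protein-coding gene whose symbol is Rpl or Rps followed by a number, or Rplp0, Rplp1, Rplp2 or Rpsa. S6 kinase genes and pseudogenes were left out. Of 85 such genes, 78 had a CRE. They gave 81 member CREs, 51 for the large and 30 for the small ribosomal subunit, since Rpl18, Rpl19 and Rpl36 had a nearer and a farther CRE. No CRE met the rule for 7 genes, namely Rpl10l, Rpl32l, Rpl39l, Rpl3l, Rpl41, Rps15a and Rps9. Each of the 81 CREs held the start of its gene. For 18 the start of another gene also lay within 1000 bp of the centre, and these are called shared. The acetylation of that gene cannot be told apart from that of the member.

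The cells were wild type BMDMs grown from bone marrow of male C57/BL6 mice. A 1 h pre-treatment came first in all of them, with DMSO as vehicle or with a clinical kinase inhibitor (CKI), of which there were 58. They were then left unstimulated (UT) or stimulated for 0.5 h, 1 h, 2 h or 4 h with lipopolysaccharide (LPS), the bacterial ligand of TLR4, or with interleukin 4 (IL-4), each at 10 ng/mL. There were 18 DMSO libraries, 2 for each of 9 conditions, and 546 CKI libraries, mostly 1 per CKI, stimulus and time. The labels do not say whether the 2 libraries of a condition came from separate cultures or mice, so p-values measure the spread between libraries, which may be technical. The same 2 UT libraries are the reference of both DMSO time courses.

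Ribosomal proteins assemble with ribosomal RNA into the small subunit, which decodes messenger RNA, and the large subunit, which forms peptide bonds. Their genes are among the most highly transcribed in growing cells, and most of their products are needed in equal amounts. Their messenger RNAs typically begin with a cytosine and a run of pyrimidines, the terminal oligopyrimidine motif through which mTOR complex 1 and Larp1 control translation.

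The promoter table of RefSeq (build GRCm38.p6, the same assembly as mm10) held 58 of the 78 genes, with 250 bases before and 50 after the start. The ETS core CCGGAAG, searched on both strands, was present in 39.7% of the 58 promoters, in 19.2% of the other 9345 promoters with a CRE and in 9.14% of all 27025 promoters. The YY1 core GCCATNTT was present in 20.7%, 8.99% and 6.20% of these. The first 5 bases from the annotated start were all pyrimidines in 24.1% of the 58, 3.79% of the others and 4.36% of all. The start used was the one annotated farthest upstream for each gene. Starts in these cells were not measured, so this share does not give how many messenger RNAs begin with such a run. The NRF1-like motif (12.1% of the 58 and 14.1% of the other promoters with a CRE), the E-box CACGTG (8.62% and 10.5%), the GC box GGGCGG (62.1% and 64.2%) and TATAAA (12.1% and 6.77%) were searched the same way. These shares describe letters in a window and not bound factors.

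The 5 sequences that follow run from 100 bases before to 20 bases after the annotated start, on the strand of the gene, and were chosen after the values were seen. Rps6 and Rplp2 show the pyrimidine run at the start, Rps24 rose after both stimuli, Rpl24 had the largest rise after LPS and Rpl36a the largest fall. Capitals mark an ETS core, a YY1 core on either strand, or the pyrimidine run at the start.
Rps6 (chr4:86857348-86857467, minus strand): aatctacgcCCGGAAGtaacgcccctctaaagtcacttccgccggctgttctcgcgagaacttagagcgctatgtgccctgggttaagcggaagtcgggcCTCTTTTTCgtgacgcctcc
Rplp2 (chr7:141447551-141447670, plus strand): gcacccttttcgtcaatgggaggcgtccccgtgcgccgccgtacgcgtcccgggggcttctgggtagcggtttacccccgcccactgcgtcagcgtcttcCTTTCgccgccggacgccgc
Rps24 (chr14:24490578-24490697, plus strand): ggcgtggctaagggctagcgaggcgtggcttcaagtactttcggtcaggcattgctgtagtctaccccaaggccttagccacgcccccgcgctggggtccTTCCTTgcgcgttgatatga
Rpl24 (chr16:55966175-55966294, plus strand): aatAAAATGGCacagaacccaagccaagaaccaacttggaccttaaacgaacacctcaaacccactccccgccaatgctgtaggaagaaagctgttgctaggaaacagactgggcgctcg
Rpl36a (chrX:134585554-134585673, plus strand): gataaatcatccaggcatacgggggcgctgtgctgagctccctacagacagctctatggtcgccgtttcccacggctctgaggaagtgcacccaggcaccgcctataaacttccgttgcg

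Values are read counts per CRE as normalized and rounded by the authors. Estimated reads within CREs numbered 2345119 to 5406531 per stimulated DMSO library and 172600 to 6581857 per CKI library. The number could not be estimated for 15 libraries, both DMSO UT libraries among them. Contrast, the median of the strongest over that of the weakest 10% of CREs, was 53 to 134 in DMSO and 3.34 to 67.2 in CKI libraries. Of 9 macrophage marker genes 6 had a CRE, with mean UT values from 226 at Mertk to 2082 at Spi1. No B cell, T cell or erythroid marker gene had one, and the only fibroblast marker with one, Col1a1, had a mean UT value of 3.5.

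In UT cells the member median of H3K27ac per kb was above that of all promoter CREs, which was not particular to the members. Over 34 translation factor CREs the median was 113, and over 3 CREs of ribosomal protein genes with other names 142. It was 92.35 over 78 respiratory chain, 77.7 over 80 mitochondrial ribosomal protein and 68.4 over 52 ribosome biogenesis CREs. The median level was 105 normalized reads per kb over the 81 members (range 38.0 to 271), 68.4 over the 11506 promoter CREs and 20.6 over all CREs. The highest levels per kb were at Rpl10a, a protein of the large subunit stalk that releases transfer RNA (271), at the nearer Rpl19 CRE (223) and at the nearer Rpl18 CRE (215). The lowest were at Rps4x, the X-linked small subunit gene (38.0), Rpl24 (40.3) and Rps24 (44.8). All 81 members passed the filter on low values, a mean of at least 10.

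IL-4 raised H3K27ac at nearly all ribosomal protein promoters, most at 2 h. The median value over the 81 members was 211 and 218 in the 2 UT libraries. After IL-4 it was 248 and 256 at 0.5 h, 326 and 304 at 1 h, 369 and 381 at 2 h, and 315 and 320 at 4 h. All 8 IL-4 libraries lay above both UT libraries, and the 2 h libraries were the highest. Over all promoter CREs the library medians ranged only from 142 to 172 in the same 10 libraries.

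**Figure D1:**
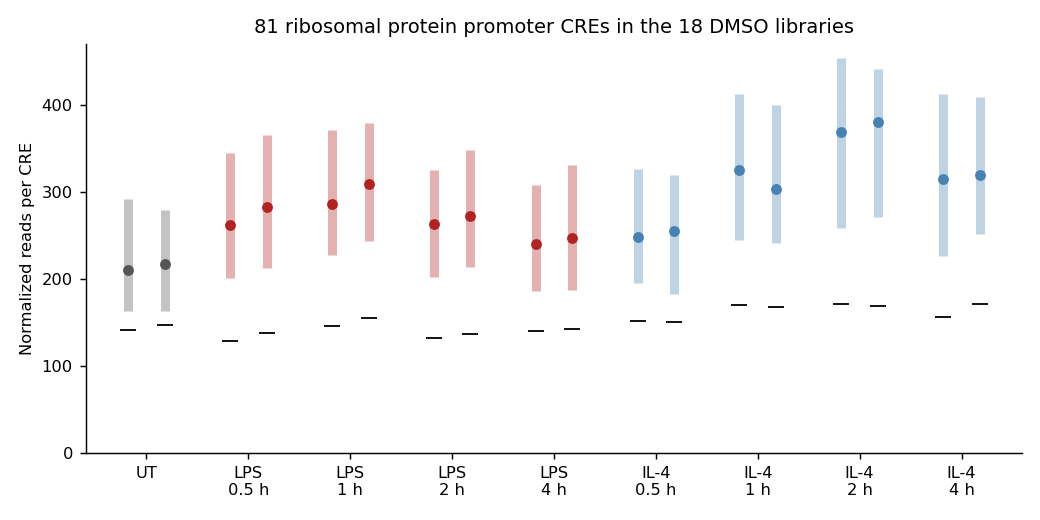
Normalized reads per CRE (vertical axis) for the 81 members in each of the 18 DMSO libraries, 2 per condition, with UT grey, LPS red and IL-4 blue. Points are medians over members, bars span the 25th to 75th percentile and black dashes are medians over all promoter CREs. The member medians are 211 and 218 in UT and reach 369 and 381 at 2 h of IL-4.

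Differences are on the scale of log2(value + 5), which understates changes of low CREs, and a member was counted as higher or lower at a time where the adjusted p of limma with Benjamini-Hochberg correction over all CREs was under 0.05. After IL-4, 16, 69, 77 and 69 of the 81 members were higher from 0.5 h to 4 h, in order of time, beside 21.8%, 21.7%, 21.4% and 20.5% of all CREs tested. Lower were 1, 1, 1 and 0 members, beside 12.2%, 17.5%, 22.7% and 18.3% of all CREs. The median log2 difference over members was 0.19, 0.52, 0.71 and 0.50, beside 0.05, 0.18, 0.20 and 0.17 over all promoter CREs. Among the fifth of CREs with the highest mean, 65 of 67 members were higher at 2 h, beside 38.3% of the other promoters. At 2 h 48 of 51 large and 29 of 30 small subunit CREs were higher.

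Since the 2 UT libraries enter every one of these differences, the later times were also set against 0.5 h of IL-4, an alternative added after the data were seen. Then 30, 68 and 42 members were higher at 1, 2 and 4 h and 0 lower, with medians of 0.31, 0.49 and 0.31. Of all CREs, 4.5%, 10.1% and 13.1% were higher and 8.45%, 20.8% and 20.1% lower on this comparison.

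By the stricter rule of an F-test over the 4 times (adjusted p under 0.01 and a log2 difference over 1 at any time) only 4 of 81 members were called, with Rpl13, Rpl23a and Rps24 among them, beside 24.7% of all CREs. The count was 7 without either 2 h replicate, 8 without UT replicate 2 and 2 with quantile normalization. At a log2 difference over 0.5 the rule called 68 members, beside 41.8% of all CREs.

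Rpl23a, a large subunit protein at the exit of the peptide tunnel, had the largest rise. Its values were 140 and 130 in UT, 172 and 226 at 0.5 h, 282 and 285 at 1 h, 341 and 404 at 2 h, and 275 and 301 at 4 h. No stimulated library overlapped UT. The log2 difference at 2 h was 1.43 ± 0.13 (SE, n = 2 libraries each, limma adjusted p = 8.3e-13).

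Rps24, a small subunit protein mutated in some patients with Diamond-Blackfan anaemia, went from 95 and 121 in UT to 259 and 248 at 2 h (log2 difference 1.20 ± 0.15, SE, limma adjusted p = 2.7e-09). Rpl13, a large subunit protein, went from 179 and 208 to 412 and 392 (1.04 ± 0.12, SE, limma adjusted p = 2.6e-10). In each case both 2 h libraries lay far above both UT libraries.

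Members chosen for their roles are given next, at 2 h of IL-4, where each of those named in this paragraph passed the test. The acidic stalk proteins Rplp0, Rplp1 and Rplp2 recruit translation factors to the large subunit, and their log2 differences were 0.71, 0.72 and 0.71. Rplp2, whose annotated start opens the pyrimidine run shown above, had 289 and 262 in UT and 446 and 463 at 2 h. Rpl5 and Rpl11, which carry a small ribosomal RNA into the large subunit and bind Mdm2 when unassembled, differed by 0.94 and 0.81. Rps6, the substrate of S6 kinase, went from 205 and 215 to 474 and 338 at 2 h (0.92 ± 0.13, SE, limma adjusted p = 5.5e-08). Its 2 h libraries differed from each other by more than the UT libraries did, yet both lay above UT. Rpl13a, also known for silencing translation in interferon-treated macrophages, differed by 0.83, Rpl3, which lies near the peptidyl transferase centre, by 0.57, and Rps3, also a DNA repair protein, by 0.66.

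At 2 h of IL-4, 4 CREs were not higher. Rps27a, which encodes ubiquitin fused to a small subunit protein, had 554 and 560 in UT and 612 and 662 at 2 h, a log2 difference of 0.19 (limma adjusted p = 0.082). Its CRE also holds the start of Clhc1. Rpl7l1, a paralog of Rpl7 that acts in ribosome biogenesis, differed by 0.10 (limma adjusted p = 0.64), and the farther Rpl19 CRE, shared with Cacnb1, by -0.26 (limma adjusted p = 0.34). The farther Rpl18 CRE, shared with the sphingosine kinase gene Sphk2, was the only member that fell, from 508 and 482 in UT to 332 and 299 at 0.5 h and 363 and 434 at 2 h. Its log2 difference was -0.64 ± 0.11 (SE, limma adjusted p = 2.4e-06) at 0.5 h and -0.31 at 2 h (limma adjusted p = 0.014). The nearer CRE of Rpl18, by the same rule also shared with Sphk2, had 374 and 389 in UT and 458 and 494 at 2 h (0.31, limma adjusted p = 0.015).

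Among paralogs, Rpl36al, whose CRE also holds the start of Mgat2, had 330 and 295 in UT and 593 and 589 at 2 h (0.91), and its paralog Rpl36a had 78 and 96 and then 138 and 175 (0.81). Rpl22 differed by 0.72 and Rpl22l1 by 0.48 at 2 h. Rps27, whose CRE is shared with Rab13, differed by 0.63 and Rps27l, a p53 target, by 0.44. Differences between paralogs were not tested.

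**Figure D2:**
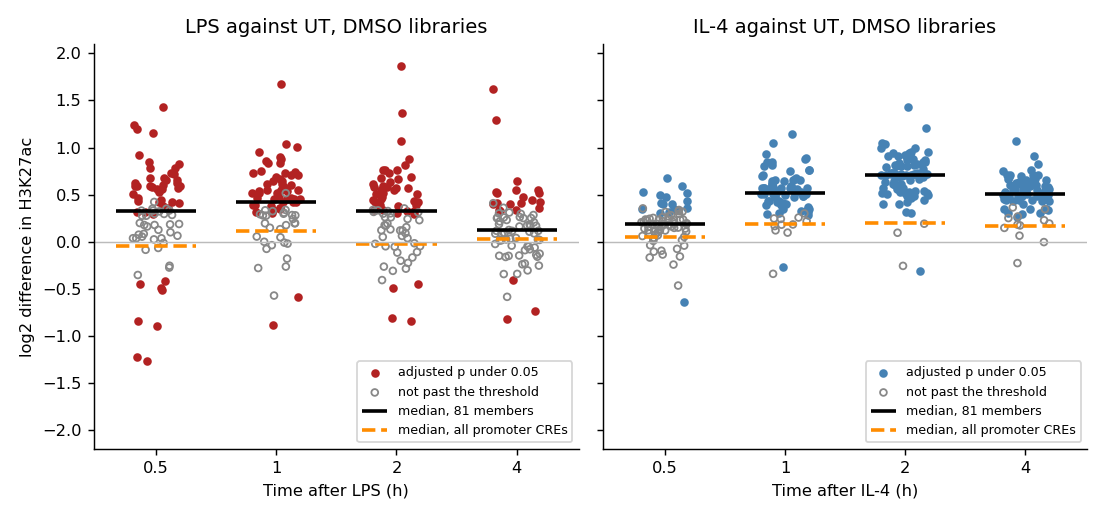
Log2 difference in H3K27ac against UT (vertical axis) for each of the 81 members at 4 times after LPS (left) and IL-4 (right) in DMSO libraries. Filled points have an adjusted p under 0.05, open points do not, black lines are member medians and dashed orange lines medians of all promoter CREs. The member median peaks at 0.42 at 1 h of LPS and at 0.71 at 2 h of IL-4.

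The rise after IL-4 was present in the CKI libraries, which share no library with the DMSO comparison. With the compound held constant, 54, 78, 78 and 79 of 81 members were higher at the 4 times, beside 34.6%, 34.4%, 28.3% and 31.4% of all CREs. Lower were 4, 2, 0 and 0, beside 19.1%, 21.5%, 29.9% and 26.4%. The median log2 difference was 0.13, 0.25, 0.36 and 0.30, so it was smaller than in DMSO at each time, and that difference was not tested. By the F-test rule with a log2 difference over 0.5, 11 members were called, beside 32.1% of all CREs.

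Taken one compound at a time, the member median at 2 h of IL-4 was above that compound's own UT in 56 of 56 CKIs, from 0.05 with AZD2014 to 0.70 with PF04691502, both mTOR inhibitors. It was above the median of all promoter CREs in 53 of them. The compounds fall into 6 consecutive runs in the deposited table, and the median over the compounds of a run at 2 h ranged from 0.14 in run 1 to 0.56 in run 5.

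In the DMSO libraries the member median peaked at 1 h of LPS, earlier than after IL-4, and some members fell. The member median in the LPS libraries was 262 and 283 at 0.5 h, 287 and 309 at 1 h, 264 and 273 at 2 h, and 241 and 247 at 4 h. All 8 lay above the UT libraries (211 and 218), and the 1 h libraries were the highest. At the 4 times 39, 50, 39 and 19 members were higher, beside 27.7%, 31.2%, 31.1% and 30.9% of all CREs. At 4 h that share was smaller among the members than over all CREs. Lower were 8, 2, 4 and 3, beside 24.6%, 25.7%, 30.2% and 26.0%. The member median log2 difference was 0.33, 0.42, 0.32 and 0.12, beside -0.04, 0.11, -0.02 and 0.03 over all promoter CREs.

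With 0.5 h of LPS as the reference, added after the data were seen, 10, 9 and 6 members were higher and 3, 10 and 23 lower at 1, 2 and 4 h, beside 15.9%, 22% and 24.3% of all CREs higher and 12.3%, 24.1% and 21.2% lower. Without 1 library at a time, between 34 and 53 members were higher at 1 h. The F-test rule called 10 members, with the farther Rpl18 CRE, Rpl21, Rpl23a, Rpl24, Rpl35, Rpl36a, Rplp0, Rps24 and Rpsa among them, beside 53.5% of all CREs. At a log2 difference over 0.5 it called 42 members, beside 65.6% of all CREs.

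Rpl24, a large subunit protein at a bridge to the small subunit, had the largest rise of all members. Its values were 149 and 164 in UT, 434 and 423 at 0.5 h, 517 and 507 at 1 h, 591 and 577 at 2 h, and 379 and 403 at 4 h of LPS. All 8 LPS libraries were more than 2 times the UT values. The log2 difference at 2 h was 1.87 ± 0.12 (SE, n = 2 libraries each, limma adjusted p = 2.4e-15). After IL-4 the same CRE had 234 and 276 at 2 h (0.68 ± 0.13, SE, limma adjusted p = 3.7e-05).

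Rps24 was higher from 0.5 h of LPS on and highest at 4 h, with 175 and 186 at 0.5 h, 194 and 168 at 1 h, 307 and 263 at 2 h, and 319 and 361 at 4 h (log2 difference 1.62 ± 0.16 at 4 h, SE, limma adjusted p = 1.4e-10). Rpsa, the small subunit protein also known as the laminin receptor, rose early and returned. It had 177 and 186 in UT, 424 and 444 at 0.5 h, 249 and 312 at 1 h, 158 and 193 at 2 h, and 197 and 224 at 4 h (1.24 ± 0.15 at 0.5 h, SE, limma adjusted p = 2.2e-08). At 2 h its libraries overlapped UT.

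Rplp0 followed the same early course, with 164 and 147 in UT, 335 and 370 at 0.5 h, and 103 and 143 at 4 h (log2 difference 1.16 ± 0.18 at 0.5 h, SE, limma adjusted p = 1e-06). Rplp1 and Rplp2, which join Rplp0 in the stalk, differed by 0.18 (limma adjusted p = 0.31) and 0.31 (limma adjusted p = 0.048) at 0.5 h. Rpl21, a large subunit protein, went from 260 and 279 to 589 and 663 at 0.5 h (1.20 ± 0.12, SE, limma adjusted p = 2.3e-10) and was 359 and 361 at 4 h. Rps6 was higher at each time after LPS, by 0.68, 0.73, 0.55 and 0.65.

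In the DMSO libraries more members were lower than UT at 0.5 h of LPS than at any later time. This was not so in the CKI libraries. Rpl36a, X-linked and low in UT (78 and 96), had 28 and 39 at 0.5 h, 74 and 43 at 1 h, 79 and 80 at 2 h, and 56 and 56 at 4 h. Only the 2 h libraries fell within the UT range. The log2 difference at 0.5 h was -1.26 ± 0.26 (SE, limma adjusted p = 9.7e-05), the largest fall among the members. The farther Rpl18 CRE went from 508 and 482 to 190 and 231 at 0.5 h and was back at 565 and 509 at 4 h (-1.22 ± 0.14 at 0.5 h, SE, limma adjusted p = 3.4e-09).

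Rpl10a, the member with the highest level per kb in UT, stayed low for the whole course. It had 500 and 559 in UT, 251 and 316 at 0.5 h, 359 and 341 at 1 h, 319 and 280 at 2 h, and 317 and 313 at 4 h (-0.90 ± 0.14 at 0.5 h, SE, limma adjusted p = 8.8e-07). None of the 8 LPS libraries reached UT. Rps4x went from 64 and 57 to 33 and 30 at 0.5 h (-0.84 ± 0.24, SE, limma adjusted p = 0.003) and had 89 and 88 at 1 h. The other members lower at 0.5 h were Rpl12, Rps27l, Rpl13a and Rps21, with log2 differences of -0.51, -0.49, -0.45 and -0.41.

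In the CKI libraries members were both higher and lower after LPS. With the compound held constant, 37, 49, 27 and 21 members were higher, beside 43.3%, 43.7%, 41.8% and 36.1% of all CREs. Lower were 23, 13, 25 and 24, beside 33.2%, 32.3%, 35.9% and 34.5%. The medians were 0.08, 0.16, -0.02 and -0.04. At 0.5 h the median was below that after IL-4 in the CKI libraries, whereas in DMSO it was above. The compounds' own member medians were above 0 in 39 of 58, 41 of 57, 32 of 55 and 29 of 55 CKIs at the 4 times. They were above the median of all promoter CREs in 54, 50, 49 and 42 of these CKIs.

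The members with the largest differences kept their direction in those libraries. Rpl24 was higher by 1.02 ± 0.05 at 2 h and Rps24 by 0.77 ± 0.06 at 4 h (SE). Rpsa was higher by 0.88 ± 0.06 and Rpl21 by 0.69 ± 0.05 at 0.5 h (SE). Rpl36a, the farther Rpl18 CRE and Rpl10a were lower at 0.5 h by -1.13, -1.34 and -1.04. By the F-test rule with a log2 difference over 0.5, 16 members were called, beside 63.8% of all CREs.

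LPS and IL-4 were then compared directly at each time in the 18 DMSO libraries, without UT as the reference. At 2 h and 4 h, 46 and 48 of the 81 members were lower after LPS than after IL-4 and 2 and 3 higher. At 0.5 h the count of higher members was near the share over all CREs. Higher after LPS were 22, 5, 2 and 3 members at the 4 times, beside 22.0%, 27.5%, 30.4% and 29.9% of all CREs. Lower after LPS were 10, 16, 46 and 48, beside 30.5%, 29.1%, 32.5% and 30.3%. The median log2 difference, LPS minus IL-4, was 0.14, -0.08, -0.39 and -0.39 over members and -0.11, -0.11, -0.27 and -0.18 over all promoter CREs. Contrast was 53 to 73.8 in the LPS libraries and 66.2 to 134 in the IL-4 libraries, and its part in these differences was not tested.

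In the CKI libraries, an alternative added after the data were seen, 70 members were lower and 4 higher after LPS than after IL-4 at 2 h, beside 37.0% and 40.4% of all CREs. At 4 h 67 were lower and 2 higher, beside 37.7% and 33.0%. At 0.5 h 35 were lower and 23 higher, beside 38.5% and 25.8%, whereas in DMSO more members were higher than lower at that time. At 1 h 38 were lower and 16 higher, beside 38.1% and 31.8%. The medians there were -0.06, -0.07, -0.39 and -0.33 at the 4 times.

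By the F-test rule 7 members differed between the stimuli, with Rpl10a, Rpl12, Rpl24, Rpl36a, Rplp0 and Rps21 among them, beside 58.4% of all CREs. At a log2 difference over 0.5 it called 48 members, beside 71.5%. Rpl12, a protein at the base of the stalk, showed the widest gap at 4 h, with 127 and 104 after LPS against 329 and 381 after IL-4 (-1.58 ± 0.15, SE, limma adjusted p = 2e-12). At 2 h it had 130 and 162 against 395 and 441, and its UT values (201 and 213) lay between. Its CRE also holds the start of Lrsam1. Rpl36a differed by -1.58 ± 0.23 (SE, limma adjusted p = 1.2e-07) at 0.5 h, with 28 and 39 after LPS and 101 and 118 after IL-4.

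Rps21, a small subunit protein, had 197 and 149 after LPS against 369 and 392 after IL-4 at 2 h (-1.13 ± 0.15, SE, limma adjusted p = 9.2e-09). Rpl10a had 319 and 280 against 687 and 626 (-1.12 ± 0.12, SE, limma adjusted p = 2.7e-11). In all of these the libraries of the stimuli did not overlap.

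Rpl24 was higher after LPS at each time, by 0.91, 1.10, 1.18 and 0.65 (limma adjusted p = 9.2e-11 at 2 h). Rplp0 and Rpsa changed order with time. Rplp0 was higher after LPS at 0.5 h (1.03 ± 0.17, SE, limma adjusted p = 1.3e-06) and lower at 4 h (-0.84 ± 0.17, SE, limma adjusted p = 3.3e-05). Rpsa was higher after LPS at 0.5 h (0.99 ± 0.17, SE, limma adjusted p = 2.8e-06) and lower at 2 h (-0.97 ± 0.17, SE, limma adjusted p = 2.9e-06). Rps24 was higher after LPS by 0.87 ± 0.15 at 4 h (SE, limma adjusted p = 5.8e-06).

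**Figure D3:**
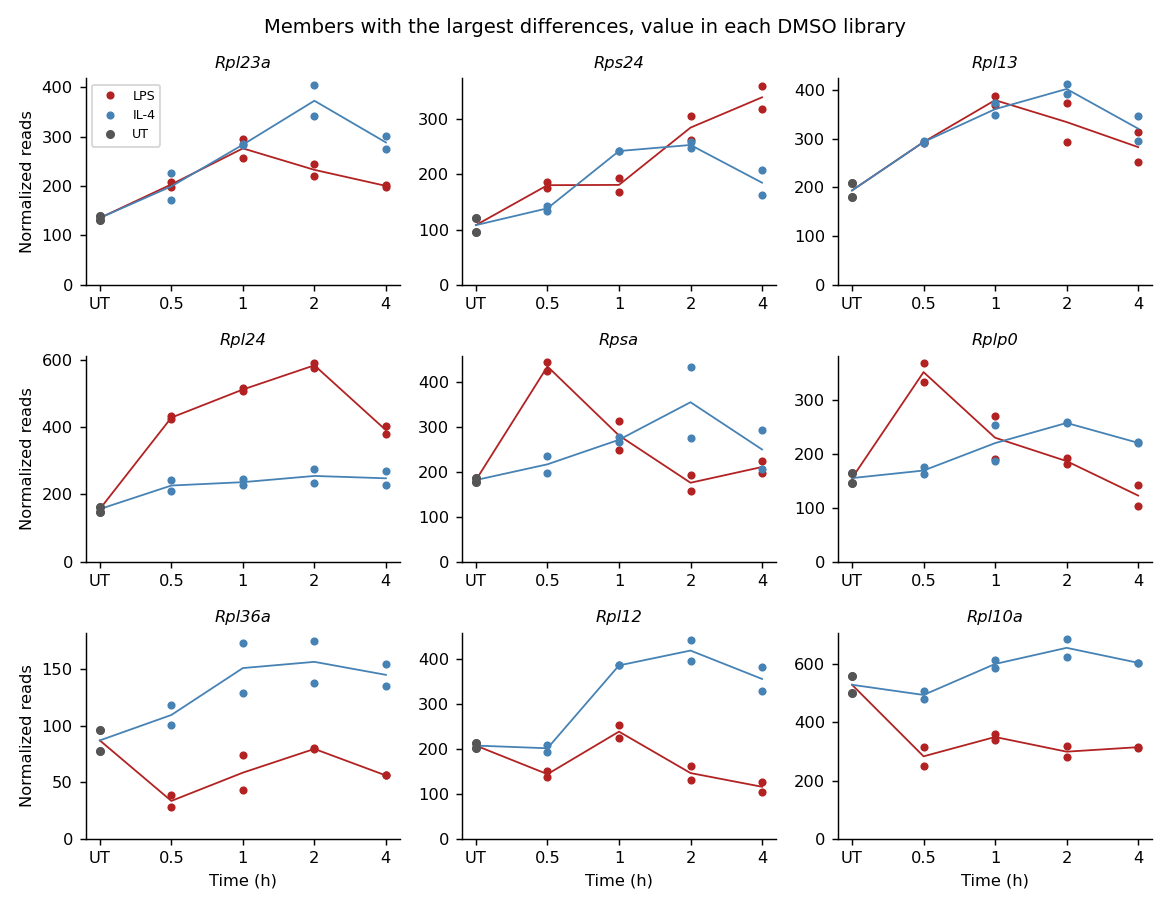
Normalized reads (vertical axes, from 0) against time after LPS (red) or IL-4 (blue), with the UT libraries in grey, for 9 members with large differences. Points are single DMSO libraries, 2 per condition, and lines join their means. Rpl24 reaches 591 and 577 at 2 h of LPS against 234 and 276 of IL-4, whereas Rpl12 has 130 and 162 against 395 and 441.

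Other genes of protein synthesis were followed by fixed lists. At 2 h of IL-4, 42 of 52 ribosome biogenesis CREs were higher (median log2 difference 0.57), and of 34 translation factor CREs 24 were (median 0.40). Of 80 mitochondrial ribosomal protein CREs 47 were higher (median 0.42), of 77 respiratory chain CREs 47 (median 0.38), and of 18 CREs of mTOR, Myc and related regulators 10 (median 0.30), beside 21.4% of all CREs. At 1 h of LPS the same lists had 25, 24, 29, 34 and 11 CREs higher, with medians of 0.39, 0.46, 0.28, 0.30 and 0.45, beside 31.2% of all CREs higher. The members' 0.71 at 2 h of IL-4 was above the median of each of these 5 lists, and these differences were not tested.

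**Figure D4:**
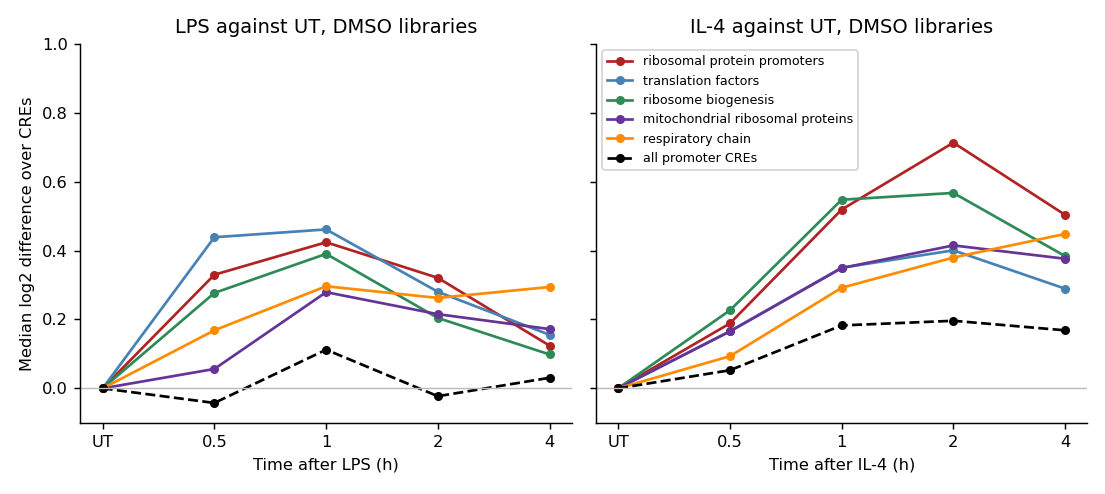
Median log2 difference in H3K27ac against UT (vertical axis) over the CREs of 5 gene lists and all promoter CREs (dashed), at 4 times after LPS (left) and IL-4 (right) in DMSO libraries. At 2 h of IL-4 the ribosomal protein promoters stand at 0.71 and ribosome biogenesis at 0.57, above all promoter CREs at 0.20.

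The members were also split by their promoter letters, as a description with no test. At 2 h of IL-4 the median was 0.81 over the 23 members' genes with an ETS core and 0.70 over the 35 without. It was 0.77 over the 14 with 5 pyrimidines from the annotated start and 0.72 over the 44 without. Over the 12 with a YY1 core it was 0.59 and over the 46 without 0.73.

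Each CKI was compared with DMSO by 1 coefficient averaged over UT and the 4 times, called at an adjusted p under 0.05 and a log2 difference over 0.5. It does not separate unstimulated from stimulated cells. For these coefficients, after LPS or after IL-4 stands for the libraries of that stimulus together with UT. In the LPS and UT libraries 406 of 4698 pairs of a member and a CKI were lower (8.64%) and 15 higher (0.319%), beside 4.04% and 32.3% of the pairs over all CREs. In the IL-4 and UT libraries 180 were lower (3.83%) and 15 higher (0.319%), beside 3.03% and 36.2%. The share depends on level. In the fifth of CREs with the highest DMSO mean, 12.1% of promoter pairs and 9.20% of member pairs were lower after LPS, and 5.20% and 4.05% after IL-4. The direction depends on scaling, since the member median was below 0 for 44 CKIs after LPS and 42 after IL-4 as deposited, for 25 and 37 after quantile normalization, and for 58 and 58 after rescaling each library to the median ratio. As deposited, the median difference of a CKI from DMSO over all CREs was 0.18 to 0.73 after LPS and 0.20 to 0.83 after IL-4, and rescaling removes this shift.

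As deposited, the lowest member medians in the LPS and UT libraries were -0.49 with AZD2014, -0.40 with PF04691502 and -0.36 with Omipalisib. These are mTOR inhibitors, and next were -0.36 with Vatalanib and -0.34 with X396. The highest were 0.18 with Tofacitinib, 0.16 with ONO4059analogue, 0.14 with GSK461364, and 0.13 with GSK2110183 and with Selumetinib. After IL-4 the lowest were -0.34 with Apatinib, -0.32 with X396, -0.30 with Omipalisib and with Vatalanib, and -0.29 with AZD2014. The highest were 0.13 with VX702, 0.10 with GSK2110183, 0.09 with Ruxolitinib, and 0.08 with Capmatinib and with TG100572. The order of the CKIs changed with scaling. After LPS the median with AZD2014 was -0.11 after quantile normalization, where the lowest was -0.20, and -1.04 after rescaling, where the lowest was -1.14. Silmitasertib, an inhibitor of casein kinase 2, had -0.07 and -0.20 after LPS and IL-4, and BMS387032, an inhibitor of cyclin-dependent kinases, 0.07 and -0.01.

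These medians moved with the run of the compounds and with depth. In the LPS and UT libraries the run medians were -0.32, -0.23, -0.06, 0.12, 0.02 and -0.19 for runs 1 to 6, with median reads of 781984.5, 1312869, 2545840.5, 4552475.5, 2643350 and 1662886 and median contrasts of 9.74, 17.5, 17.6, 35.6, 20.2 and 12.8. DMSO lies outside the runs, so the part of run, depth and contrast in a CKI's difference from DMSO was not tested. PH797804 had -0.33 after LPS and -0.14 without its 0.5 h LPS library, which held 172600 reads.

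Rpl4, a protein lining the peptide tunnel, was lower in the largest number of CKIs, 34 after LPS and 21 after IL-4. Rpl10, which joins the large subunit late in its assembly, was lower in 33 and 19. Their median log2 differences over the 58 CKIs after LPS were -0.53 and -0.54. Called higher after LPS were Rpl12 in 9 CKIs, Rpl8 in 4, and Rps21 and Rpl5 in 1 each. After IL-4 the farther Rpl19 CRE was higher in 14 CKIs and Rpl8, a protein near the peptidyl transferase centre, in 1. Of the 81 members 15 were lower in no CKI after LPS, and 37 after IL-4. The like counts over all CREs were not taken, so those of this paragraph are not a result about the members. In the fifth of CREs with the highest DMSO mean, which held 75 members, 14.6% of all pairs were lower after LPS and 9.51% after IL-4.

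**Figure D5:**
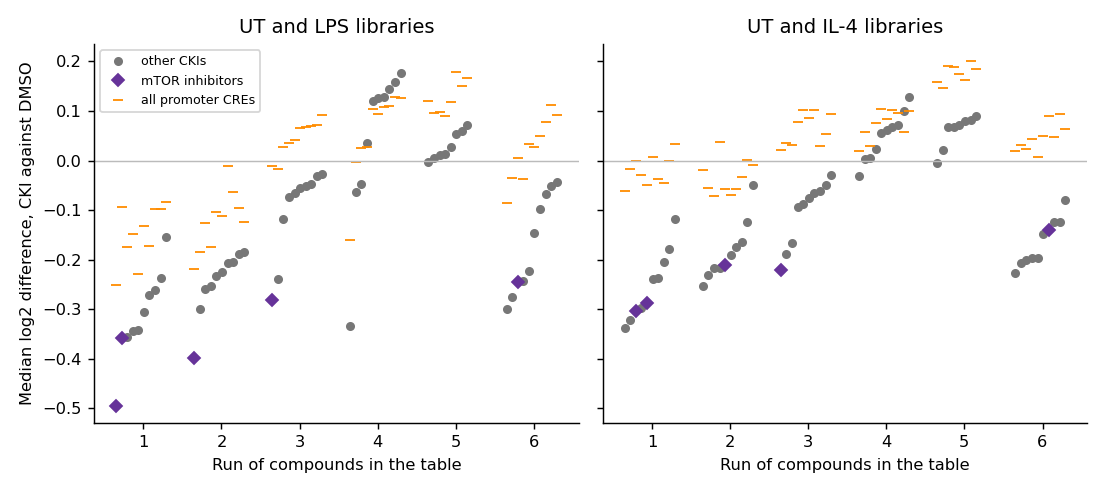
Median log2 difference of the 81 members, CKI against DMSO (vertical axis), for each of 58 CKIs ordered by run of compounds in the deposited table, in the UT and LPS (left) and UT and IL-4 (right) libraries. Purple diamonds are 5 mTOR inhibitors, grey points other CKIs and orange dashes the medians of all promoter CREs. After LPS the lowest value is -0.49 with AZD2014 and the highest 0.18 with Tofacitinib.

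The 5 inhibitors of mTOR, the kinase that couples nutrients to ribosome production, were AZD2014, Apitolisib, BGT226, Omipalisib and PF04691502. AZD2014 is directed at mTOR and the others also at phosphoinositide 3-kinase. Per the study, the concentration of each CKI was set by its binding to an intended target, which need not be mTOR. For Apitolisib that target was JAK1. Inhibition of mTOR at the concentrations used was not measured in these data. They were set against the other 53 CKIs with the run as a covariate and the compound as the replicate. In the LPS and UT libraries 9 of 81 members were lower and 0 higher by limma with Benjamini-Hochberg correction, beside 2.13% and 0.647% of all CREs. At an unadjusted p under 0.05, 42 members were lower, beside 9.48% of all CREs and 16.4% of promoter CREs, and 78 of the 81 differences were negative, beside 43.7% and 63.1%. The median difference was -0.14 over members, -0.04 over all promoter CREs and 0.03 over all CREs. Here and for IL-4 below, no share at CREs of like level was taken. In the fifth of CREs with the highest DMSO mean lay 75 members, so the shares over all CREs include many of lower level.

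The 9 were Rpl39, Rps12, Rpl36al, Rpl22l1, Rpl7l1, Rpl5, Rpl27, Rpl10a and Rps25. Rpl39, a small protein in the peptide tunnel, was lower by -0.38 ± 0.08 (SE, limma adjusted p = 0.00286), with differences from DMSO of -0.51 with AZD2014, -0.03 with Apitolisib, -0.48 with BGT226, -1.16 with Omipalisib and -0.08 with PF04691502. Rps12, a small subunit protein, was lower by -0.34 ± 0.07 (SE, limma adjusted p = 0.00142), with -1.01, -0.77, -0.57, -0.60 and -0.49 in the same order. The 5 compounds were more even at Rps12 than at Rpl39, where 2 of them lay near 0. Rps6 was lower by -0.18 ± 0.07 and did not pass the correction (SE, limma adjusted p = 0.152).

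Within runs, the member median after LPS was below that of every CKI of the run that is not an mTOR inhibitor for AZD2014 (-0.49, others -0.36 to -0.16), Omipalisib (-0.36, same run), PF04691502 (-0.40, others -0.30 to -0.19) and BGT226 (-0.28, others -0.24 to -0.03). Apitolisib (-0.24) lay above 2 of the 9 others in its run. Omipalisib was below the lowest of the others by less than the rounding of these values. Omipalisib and AZD2014 had the lowest median contrasts of their run (6.47 and 7.02), and PF04691502 had the lowest contrast (12.5) and the fewest reads (809748) of its run. Apitolisib (12.2) and BGT226 (18.6) did not have the lowest contrast of theirs, and the part of contrast and depth was not tested.

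In the IL-4 and UT libraries 2 members were lower and 0 higher, Rpl8 (-0.26 ± 0.07, SE, limma adjusted p = 0.0184) and the nearer Rpl36 CRE (-0.20 ± 0.06, SE, limma adjusted p = 0.0473), beside 3.82% and 0.911% of all CREs. The median over members was -0.05, and 14 members were lower at an unadjusted p under 0.05, beside 15.8% of all CREs and 10.3% of promoter CREs. Of the 5 only BGT226 (-0.22) was below every CKI of its run that is not an mTOR inhibitor (-0.19 to -0.03). The count was 0 without BGT226 or without Omipalisib, and 5 without Apitolisib. Whether the mTOR inhibitors acted differently after LPS and IL-4 was not tested, and both sets share the UT libraries.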

How the data were processed

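H3K27ac ChIP-seq of BMDMs was sequenced as single reads. Per the study's methods and the labels, the authors removed adapters, trimmed reads to 51 bases, mapped them to mm10 with ShortStack (Bowtie and SAMtools are named in the submitters' notes), counted reads around ATAC-seq summits and scaled libraries by invariant peaks. What was deposited is a score: the authors scaled their counts per CRE and rounded them, so no count model was used. CRE widths vary, and levels were compared between genes only per kb. Reads per library were estimated from the spacing of the deposited values, and the estimate covers counting only.

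CREs with a mean of at least 10 were tested on log2(value + 5) with limma 3.58.1 (mean trend) in R 4.3.3, with Benjamini-Hochberg adjustment over all CREs tested. Tables were joined in Python 3.11.15 with pandas 2.3.3 and drawn with matplotlib 3.10.9. The scripts were tested on simulated data with the spread of the real CREs. Changes were recovered less often at low than at high CREs there, so shares over all CREs include many with less power than the members. Groups came from the treatment labels. The labels put UT at 4 h without stimulus and the titles at time 0. Libraries with the title suffix b were taken as further libraries of their group. The study used an impulse model where an F-test over times was used here with the same thresholds. Runs of compounds in the column order served only as a technical batch.

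The members and lists were chosen with earlier results of these data known. Named members were the 4 largest rises and falls in each DMSO comparison, the 3 highest and lowest per kb in UT, the 3 called most often over CKIs, and a fixed list of stalk proteins, proteins with further roles and paralogs. Some items named by this rule are not reported here. Named CKIs were the 5 with the lowest and the 5 with the highest median, the mTOR inhibitors, BMS387032 and Silmitasertib. Replicate numbers did not pair libraries. Over 36 pairs of conditions the deviations of same-numbered libraries correlated between -0.087 and 0.066. Replicates of 1 condition correlated at 0.959 to 0.982 over all CREs. Alternatives were other pseudocounts, filters, scalings, thresholds and references, and leaving out each replicate.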

Additional observations from a re-analysis of the deposited data

Results flagged for a closer look

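For the 6 members named here LPS and IL-4 differed in a direct test, the limma F-test over the 4 times of LPS minus IL-4. The F-test rule called 58.4% of all CREs, so such a difference is not particular to these members. The log2 differences were 1.18 at Rpl24, -1.12 at Rpl10a and -1.13 at Rps21, all at 2 h, -1.58 at Rpl12 at 4 h, and 1.03 at Rplp0 and -1.58 at Rpl36a at 0.5 h. The CRE of Rpl12 also holds the start of Lrsam1, and the share of either gene in its signal cannot be told apart.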

How the results depend on the processing

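For the members named by size in the DMSO comparisons, only the largest single-time difference of each was recalculated. It kept its direction and stayed past the threshold in 413 of 413 recalculated values over 21 results. These 21 had been picked as the largest past the threshold, and the differences given at other times were not recalculated. At a log2 difference over 0.5 in place of 1, the F-test rule called 42 members after LPS, 68 after IL-4 and 48 between the stimuli, beside 65.6%, 41.8% and 71.5% of all CREs. After IL-4 it called 2 with quantile normalization and 4 to 8 without 1 replicate (7 without either 2 h replicate and 8 without UT replicate 2). Across CKIs it called 29 for LPS with quantile normalization, and for IL-4 6 with a pseudocount of 20 and 19 after rescaling. Against 0.5 h, 10 members were higher at 1 h of LPS. With the replicate block, the F-test rule called 10, 4 and 7 members for LPS, IL-4 and their difference, and 52 and 77 were higher at 1 h of LPS and 2 h of IL-4, so it changed no count by over 1.5 times.

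The counts of CKI effects depended most on the processing. Of 4698 member pairs, lower ones after LPS numbered 79 with quantile normalization, 3186 after rescaling and 69 against the mean of all compounds. The shares of pairs over all CREs were 2.63%, 22.5% and 1.52%. After IL-4 the counts were 98, 3034 and 25, beside 3.76%, 22.7% and 1.28%. With no threshold on the difference 854 were lower after LPS and 1027 after IL-4, and the share over all CREs was not taken. Higher pairs after LPS numbered 0 after rescaling and 2 against the mean, beside 16.3% and 1.26% over all CREs, and 56 with no threshold. After IL-4 they numbered 7 with a pseudocount of 20, 1 with quantile normalization, 0 after rescaling, 0 against the mean and 81 with no threshold. Beside the 4 counts with the threshold stood 30.7%, 2.78%, 21.8% and 2.7% over all CREs. Leaving out 1 DMSO replicate gave 334 to 482 lower and 11 to 14 higher pairs after LPS, and 167 to 190 and 13 to 20 after IL-4. Over all CREs 3.24% to 3.43% of pairs were then lower and 22.5% to 25.9% higher after LPS. After IL-4 these shares were 2.49% to 2.72% and 29.4% to 30.1%. The cause was not tested. For the mTOR inhibitors after IL-4, the count was 1 with no run covariate and 0 with quantile normalization, and it was 5 without Apitolisib, 0 without BGT226 and 0 without Omipalisib. Most CKIs have 1 library per stimulus and time, which limits what can be said of a single CKI.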
